A study of Mus musculus with 12 samples.

Results

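The 48 genes described here act late in the cell cycle, in G2 and in mitosis, and were chosen as a list of names in 7 groups by role. Each was read from the brightest probe whose accession names it. All 48 were on the array, and 47 of them passed the filter on dim probes, among 23109 genes or transcripts tested in all. To pass, a probe had to exceed background clearly in all 3 mice of 1 genotype or more. Cenpf did not pass it and is given by its values alone. The RNA came from alveolar macrophages, which live in the airspaces of the lung and clear debris and surfactant, and which were lavaged from the lung and sorted by flow cytometry. Mice lacking both Bach1 and Bach2 (DKO), Bach2 alone (Bach2 KO) or Bach1 alone (Bach1 KO) were compared with wild-type mice (WT), with 3 mice and 3 arrays for each of the 4 genotypes. All mice were C57BL/6 females of 8 to 9 weeks, and the labels do not name the alleles or the deleted exons. A level is the log2 of the processed signal minus the log2 75th percentile of the same array, a difference is a mean difference ± SE, and n is 3 mice per genotype throughout. A gene passed when its adjusted p from limma, over all 23109, was under 0.05.

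Cells enter mitosis when cyclin-dependent kinase 1, bound to A and B cyclins, is switched on, and Polo and Aurora kinases then drive spindle assembly. The spindle checkpoint holds the cell until every kinetochore is attached, after which the anaphase-promoting complex (APC/C) marks securin and cyclin B for destruction and the cell divides. Genes of this programme are transcribed in G2 and mitosis and are silent in resting cells, and alveolar macrophages are known to maintain themselves in the adult lung by local division. Bach1 and Bach2 are related transcriptional repressors that bind DNA together with small Maf proteins.

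Most mitotic genes were lowest in DKO macrophages and intermediate in Bach2 KO macrophages, while Bach1 KO and WT macrophages were close to each other. The median of the 48 genes, taken after subtraction of each gene's WT mean, was -4.18, -4.42 and -4.35 on the DKO arrays, -2.20, -1.97 and -1.95 on the Bach2 KO arrays, 0.00, -0.06 and -0.20 on the Bach1 KO arrays and -0.14, 0.00 and 0.13 on the WT arrays. The DKO arrays stood below the Bach2 KO arrays without overlap, and both stood below all Bach1 KO and WT arrays, which overlapped each other. Between 36 and 43 of the 48 genes were well above background on a DKO array, against 43 to 48 in Bach2 KO, 46 to 48 in Bach1 KO and 47 to 48 in WT. Of the 48 genes, 46 had their lowest level on a DKO array, and the other 2, Ndc80 and Pttg1, had it on a Bach2 KO array. No gene had its highest level on a DKO or a Bach2 KO array. Because RNA was taken from sorted cells in bulk, fewer dividing cells and less of each RNA per cell cannot be told apart.

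**Figure D1:**
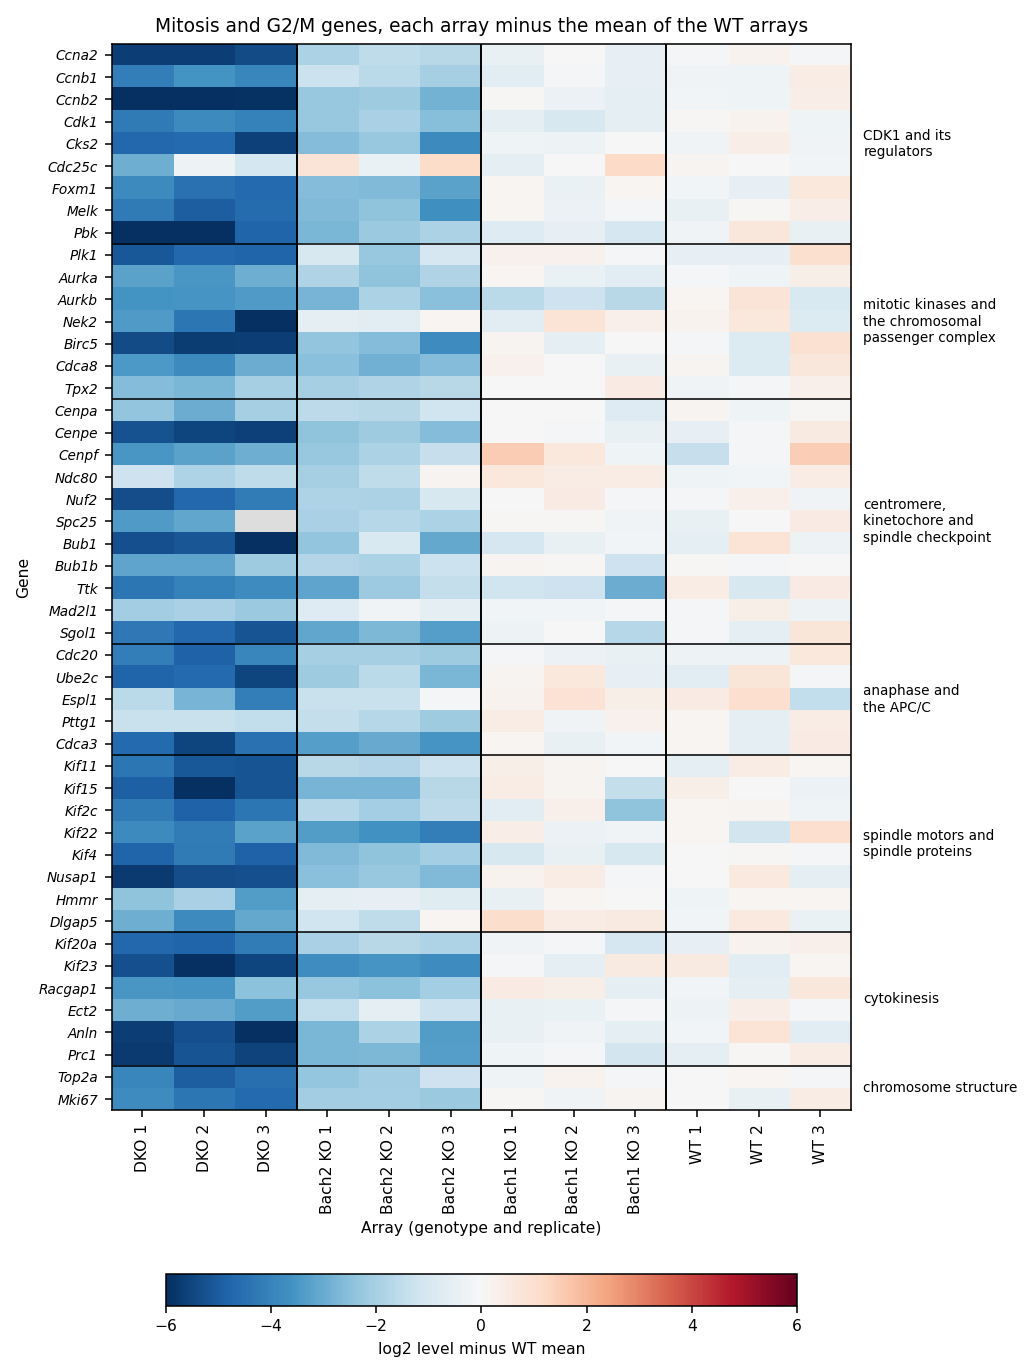
Colour gives the log2 level of each of the 48 genes (rows, grouped by role) on each of the 12 arrays (columns, by genotype and replicate) minus the mean of the 3 WT arrays, and the grey cell is an outlier spot that was left out. The DKO columns are darkest, with a median between -4.42 and -4.18, the Bach2 KO columns are paler, and the Bach1 KO and WT columns are close to 0.

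Against WT, 46 of the 47 tested genes were lower in DKO and none was higher, with a median difference of -4.46 over the 47 and of -0.28 over all genes. The background was 16.6% of all genes lower and 10.6% higher in this comparison. With the 3 genes that were not well above background on any DKO array set to their bound, the median was -4.32. In Bach2 KO against WT, 40 genes were lower, none was higher and 7 did not pass, with a median of -2.12 against -0.30 over all genes, where 24.7% of all genes were lower and 12.4% higher. Without scaling between arrays the Bach2 KO count was 26, with 9.37% of all genes lower and a median over all genes of 0.39. In Bach1 KO against WT, none passed in either direction in limma, where 0.0433% of all genes were lower and 0.0173% higher. The median there was -0.14, against -0.07 over all genes, and changed sign without scaling (0.01) or with WT replicate 3 and Bach1 KO replicate 3 both left out (0.06). In that comparison 4 genes were lower and 0 higher at an unadjusted p under 0.05, where 691 of all 23109 were lower and 534 higher. At that unadjusted level none of the 47 was higher in DKO or Bach2 KO either, where 3446 and 3703 of all 23109 were higher.

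Without any filter on dim probes, which keeps all 48 genes, 46 were lower in DKO and 40 in Bach2 KO than in WT, where 8.97% and 13.5% of all 37150 genes or transcripts were lower. Of the 35 genes that were well above background on all 12 arrays, 35 were lower in DKO and 32 in Bach2 KO. With the filter set to all 12 arrays, 19.7% and 31.2% of all 16288 genes or transcripts were lower. Another 12 genes were not well above background on all DKO arrays. Of these, Cdc25c, Aurkb, Ndc80, Ttk and Kif15 met the filter neither in DKO nor in Bach2 KO, so their difference was partly set by the filter itself.

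The arrays showed the same order gene by gene. All 47 tested genes had every DKO array below every WT array, where this held for 29.1% of all genes, and 41 had every Bach2 KO array below every WT array, where it held for 33.4%. In 36 genes every DKO array lay below every Bach2 KO array and these below all Bach1 KO and WT arrays, an order found in 2.72% of all genes. Bach1 KO arrays lay below all WT arrays in 5 genes, where this held for 4.28% of all genes. These were Cdk1, Pbk, Aurkb, Ttk and Kif4. In them Bach1 KO minus WT was between -1.81 (Ttk) and -0.69 (Cdk1), and the smallest adjusted p was 0.431 (Aurkb).

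The genotype labels and cell identity were read from the same arrays. Bach1 stood at 2.59, 3.13 and 1.72 in DKO and 2.40, 2.55 and 2.53 in Bach1 KO, below 3.81, 4.12 and 3.88 in Bach2 KO and 3.72, 4.28 and 3.77 in WT, with a difference of -1.44 (adjusted p = 0.0108) in DKO and -1.43 (adjusted p = 0.306) in Bach1 KO against WT. Both adjusted p are from a limma fit of all probes without the filter on dim probes. Of the 2 Bach2 probes, 1 was at background on all arrays and the other ranged from -8.13 to -2.18 within WT, so they do not check the Bach2 labels. All 10 alveolar macrophage markers were well above background on all 12 arrays, but their summed linear level was 365 to 565 in DKO and 395 to 563 in Bach2 KO, against 929 to 1520 in Bach1 KO and 1240 to 1590 in WT. The summed level of 6 dendritic cell markers was 16.5 to 44 in DKO and 31.4 to 42.8 in Bach2 KO, against 0.334 to 2.05 in Bach1 KO and 0.285 to 1.64 in WT, with Xcr1 not well above background on any Bach2 KO, Bach1 KO or WT array and Cd209a not on any WT array. Of 8 tested T cell markers, 4 were higher and 1 was lower in DKO and likewise 4 and 1 in Bach2 KO than in WT, with medians of 1.33 in DKO and 2.0 in Bach2 KO. Between 7 and 9 of the 9 on the array were well above background in DKO and 8 to 9 in Bach2 KO, against 6 in Bach1 KO and 6 in WT. Their sum followed the bright Cd2, which was lower, and was 7.76 to 10.9 in DKO and 14.3 to 16 in Bach2 KO, against 79.6 to 101 in Bach1 KO and 78.5 to 147 in WT. Epithelial markers summed to 19.6 to 23.9 in DKO and 24.2 to 28.9 in Bach2 KO, against 77.9 to 141 in Bach1 KO and 106 to 135 in WT. Of 6 tested epithelial markers, 2 were lower and 1 was higher in DKO than in WT, and 3 were lower and 1 was higher in Bach2 KO. Monocyte markers summed to 14.8 to 18.1 in DKO and 4.71 to 6.06 in Bach2 KO, against 12.1 to 18.7 in Bach1 KO and 10.9 to 16.1 in WT. The monocyte sum hid moves in opposite directions. Of 5 tested monocyte markers, 2 were lower and 2 higher in DKO than in WT, with differences from -8.65 to 10.89. In Bach2 KO, 3 of them were lower and 1 was higher than in WT. The part of these marker shifts in the levels of the mitotic genes was not tested. Arrays of a genotype correlated with each other at 0.94 to 0.988, and of the 59305 spots on each array 45.2% to 72.4% were well above background.

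The 12 arrays lay on 3 slides. All DKO arrays were on a slide of their own, so genotype and slide cannot be told apart in any comparison with DKO. WT, Bach1 KO and Bach2 KO replicates 1 and 2 shared slide 1, and on this slide alone 38 mitotic genes were lower in Bach2 KO than in WT, with a median of -2.06, where 14.9% of 22562 genes were lower and the median of all was -0.29. Bach2 KO replicate 3 was alone on slide 2. With slide as a random block the counts were 40 in Bach2 KO and 46 in DKO, where 24.4% and 15% of all genes were lower. Such a block cannot separate DKO from its slide. Within slide 1, the row that held Bach2 KO replicates 1 and 2 also held Bach1 KO replicates 2 and 3, and the median of the mitotic genes there was -2.20 and -1.97 in Bach2 KO against -0.06 and -0.20 in Bach1 KO.

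Promoter windows were read for these genes because so many of them moved together. RefSeq windows of 300 bases, from 250 before to 50 after the transcription start (build GRCm38.p6), were found for 40 of the 48 genes, in 42 windows, and the table names no window for Aurkb, Ccna2, Cdc25c, Dlgap5, Foxm1, Kif20a, Pbk and Tpx2. Short motifs were searched by their letters on both strands. TTTGAA, the core of the cell cycle genes homology region known from mitotic promoters, was present in 30 of the 42 windows (71.4%) and in 17.9% of all 32851 windows. CCAAT, the box bound by NF-Y, was present in 32 windows (76.2%) and in 37.4% of all windows, and 22 windows (52.4%) held at least 2 copies, against 11.7% of all. Both motifs stood in 26 windows (61.9%), against 6.95% of all, and they shared bases at 1 place in the 42 windows. Between 40 bases before and 45 after the start, a range chosen after the positions were seen, 28 windows (66.7%) held TTTGAA, against 4.39% of all. TTTAAA, a variant of the same core, was in 21.4% of the windows and 13.2% of all, while GGCGGGAA, an E2F-like site, was in 0 of 42 (2.19% of all) and TGAGTCA, an AP-1-like site, was in 0 of 42 (5.2% of all). A match describes letters only.

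Shown first are 3 genes of the group that was lower in Bach2 KO and lower again in DKO, Ccnb2, Cdk1 and Cdca3, each with repeated CCAAT and a TTTGAA near the start, then Kif23, with 1 copy of each side by side. The call in DKO against Bach2 KO was lost under 7 alternative settings of the processing for Cdca3 and 5 for Kif23. The last pair, Kif22 and Pttg1, were lower in Bach2 KO and did not pass in DKO against Bach2 KO, and Pttg1 has neither motif in its window. The start used for Pttg1 lies 1482 bases inside the gene's outer end in the annotation, that for Cdca3 646 bases, and in 7 of the 42 windows this distance is over 100 bases. Capitals mark TTTGAA and CCAAT on the printed strand and TTCAAA and ATTGG, the same motifs on the other strand. The windows lie at chr9:70421505-70421804 (minus strand), chr10:69352863-69353162 (minus), chr6:124829926-124830225 (plus), chr9:61946750-61947049 (minus), chr7:127042371-127042670 (minus) and chr11:43425932-43426231 (minus).
Ccnb2: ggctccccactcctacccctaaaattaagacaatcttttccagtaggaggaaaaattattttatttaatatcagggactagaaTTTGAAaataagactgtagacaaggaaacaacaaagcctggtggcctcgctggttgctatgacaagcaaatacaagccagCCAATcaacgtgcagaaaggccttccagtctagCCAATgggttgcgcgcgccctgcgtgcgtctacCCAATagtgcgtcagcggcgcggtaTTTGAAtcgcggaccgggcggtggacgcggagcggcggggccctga
Cdk1: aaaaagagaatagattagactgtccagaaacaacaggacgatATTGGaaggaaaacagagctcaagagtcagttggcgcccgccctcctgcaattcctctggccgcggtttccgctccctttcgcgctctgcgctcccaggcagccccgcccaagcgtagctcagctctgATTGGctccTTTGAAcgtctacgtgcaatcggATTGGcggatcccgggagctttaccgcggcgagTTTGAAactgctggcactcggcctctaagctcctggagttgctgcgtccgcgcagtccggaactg
Cdca3: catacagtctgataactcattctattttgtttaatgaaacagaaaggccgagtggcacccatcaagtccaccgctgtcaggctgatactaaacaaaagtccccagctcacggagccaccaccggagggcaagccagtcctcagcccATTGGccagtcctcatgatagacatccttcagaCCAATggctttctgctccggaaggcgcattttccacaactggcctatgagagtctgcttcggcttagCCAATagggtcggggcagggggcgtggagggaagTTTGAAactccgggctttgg
Kif23: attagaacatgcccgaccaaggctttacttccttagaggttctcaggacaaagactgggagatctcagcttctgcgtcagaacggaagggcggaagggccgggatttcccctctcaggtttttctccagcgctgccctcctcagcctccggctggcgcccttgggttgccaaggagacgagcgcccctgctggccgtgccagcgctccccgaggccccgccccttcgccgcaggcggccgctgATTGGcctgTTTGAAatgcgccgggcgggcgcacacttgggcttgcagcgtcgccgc
Kif22: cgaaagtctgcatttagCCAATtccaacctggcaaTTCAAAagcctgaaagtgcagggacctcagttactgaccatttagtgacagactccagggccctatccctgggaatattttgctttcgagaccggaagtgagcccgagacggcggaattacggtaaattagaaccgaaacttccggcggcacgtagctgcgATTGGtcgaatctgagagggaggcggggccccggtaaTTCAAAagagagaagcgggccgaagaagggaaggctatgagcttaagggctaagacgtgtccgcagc
Pttg1: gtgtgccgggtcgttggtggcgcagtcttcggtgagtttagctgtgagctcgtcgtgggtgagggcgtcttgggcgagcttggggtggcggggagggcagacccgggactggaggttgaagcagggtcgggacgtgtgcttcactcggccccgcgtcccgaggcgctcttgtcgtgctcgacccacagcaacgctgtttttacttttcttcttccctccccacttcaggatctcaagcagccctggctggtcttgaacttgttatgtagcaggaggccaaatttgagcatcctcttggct

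The copy of TTTGAA nearest the start began at base 4 in Ccnb2, -15 in Cdk1, 30 in Cdca3, 2 in Kif23 and -17 in Kif22, with the base after the first 250 of the window counted as 0. Ccnb2 held CCAAT at -87, -54 and -21. Of the 27 windows of genes that were lower in Bach2 KO and lower again in DKO, 19 held TTTGAA and 20 held CCAAT, and of the 9 windows of genes where the second step did not pass, 7 held TTTGAA and 8 held CCAAT. Windows with neither motif belonged to Birc5, Mad2l1, Melk, Nuf2, Nusap1 and Pttg1.

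Of the 9 genes for cyclin-dependent kinase 1 and its regulators, 8 were lower in DKO and 8 in Bach2 KO than in WT, and Cdc25c passed in neither. Cdk1, the kinase that starts mitosis, was at -1.0, -0.58 and -0.83 in DKO, 0.94, 1.29 and 0.66 in Bach2 KO, 2.68, 2.27 and 2.67 in Bach1 KO and 3.28, 3.43 and 2.98 in WT. The 4 genotypes formed 4 separate ranges in the order DKO, Bach2 KO, Bach1 KO and WT. Cdk1 differed by -4.03 ± 0.25 (SE, adjusted p = 4.89e-07) in DKO and -2.26 ± 0.25 (SE, adjusted p = 6.04e-05) in Bach2 KO against WT, and by -0.69 (adjusted p = 0.719) in Bach1 KO, which did not pass. Ccnb2, a B cyclin that activates Cdk1, was at -1.96, -2.14 and -1.66 in DKO, 2.02, 2.15 and 1.45 in Bach2 KO, 4.37, 3.94 and 3.68 in Bach1 KO and 4.13, 4.02 and 4.68 in WT. Its DKO arrays lay far below its Bach2 KO arrays, and the difference from WT was -6.20 ± 0.29 (SE, adjusted p = 6.5e-08), or 73.3-fold lower, in DKO and -2.40 ± 0.29 (SE, adjusted p = 0.000101) in Bach2 KO. Ccna2, the cyclin of S phase and G2, was at -2.08, -2.09 and -1.82 in DKO, 1.67, 2.05 and 1.88 in Bach2 KO, 3.12, 3.59 and 3.06 in Bach1 KO and 3.43, 3.76 and 3.49 in WT. It was lower in Bach2 KO (-1.69, adjusted p = 0.000254) and reached a 47.2-fold lower level in DKO (-5.56 ± 0.23 (SE, adjusted p = 3.25e-08)), and no array of DKO or Bach2 KO overlapped another genotype.

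Melk, a kinase of proliferating cells, was at -0.72, -1.39 and -1.06 in DKO, 0.91, 1.14 and -0.13 in Bach2 KO, 3.67, 3.20 and 3.45 in Bach1 KO and 3.09, 3.59 and 3.94 in WT. Bach1 KO and WT overlapped while the others were separate, with -4.60 ± 0.36 (SE, adjusted p = 2.47e-06) in DKO and -2.90 ± 0.36 (SE, adjusted p = 0.00012) in Bach2 KO against WT. Foxm1, a transcription factor that activates G2 and mitotic genes, was at -3.58, -4.26 and -4.43 in DKO, -2.36, -2.40 and -3.00 in Bach2 KO, 0.35, -0.16 and 0.35 in Bach1 KO and 0.08, -0.26 and 0.88 in WT. DKO arrays were below Bach2 KO arrays, but the difference of -1.50 ± 0.38 (SE, adjusted p = 0.0531) did not pass, whereas Bach2 KO differed from WT by -2.82 ± 0.38 (SE, adjusted p = 0.000219). Cdc25c, the phosphatase that removes inhibitory phosphates from Cdk1, was dim, at -7.86, -5.28 and -5.99 in DKO, -4.20, -5.36 and -3.86 in Bach2 KO, -5.47, -4.97 and -3.82 in Bach1 KO and -4.78, -4.95 and -5.13 in WT. It was well above background on 0 of 3 DKO arrays and 2 of 3 Bach2 KO arrays. The DKO range overlapped Bach2 KO and Bach1 KO but not WT, and ranges overlapped between Bach2 KO, Bach1 KO and WT. With dim DKO values set to their bound, its mean was 1.48-fold lower in DKO than in WT, and the fitted difference did not pass (adjusted p = 0.129). Ccnb1 and Cks2, another B cyclin and a small subunit of Cdk1 complexes, and Pbk, a mitotic kinase, were also lower in both genotypes, with -3.88, -5.01 and -6.05 in DKO and -1.63, -2.91 and -2.30 in Bach2 KO. The Bach2 KO call of Ccnb1 was lost with the mean of its probes (-1.12, adjusted p = 0.0508) and without scaling (-0.94, adjusted p = 0.06).

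All 7 genes for mitotic kinases and the chromosomal passenger complex were lower in DKO than in WT and 6 were lower in Bach2 KO, while Nek2 did not pass there. Birc5 (survivin), a subunit of the chromosomal passenger complex that corrects faulty spindle attachments, was at 0.41, 0.06 and 0.14 in DKO, 3.41, 3.15 and 1.98 in Bach2 KO, 5.95, 5.25 and 5.77 in Bach1 KO and 5.68, 4.96 and 6.66 in WT. The DKO, Bach2 KO and remaining arrays formed 3 separate ranges, with -5.56 ± 0.44 (SE, adjusted p = 2.98e-06) in DKO and -2.92 ± 0.44 (SE, adjusted p = 0.000498) in Bach2 KO against WT. Cdca8 (borealin), which belongs to the same complex, was at 0.98, 0.57 and 1.44 in DKO, 1.91, 1.53 and 1.82 in Bach2 KO, 4.65, 4.39 and 3.98 in Bach1 KO and 4.57, 3.59 and 5.08 in WT. Here DKO lay under Bach2 KO without overlap but did not pass (-0.75 ± 0.37 (SE, adjusted p = 0.262)), and Bach2 KO differed from WT by -2.66 ± 0.37 (SE, adjusted p = 0.000253). Aurka, the Aurora kinase of spindle poles, was at -0.93, -1.18 and -0.62 in DKO, 0.49, -0.10 and 0.51 in Bach2 KO, 2.44, 1.91 and 1.65 in Bach1 KO and 2.22, 2.03 and 2.65 in WT. Its ranges were again separate for DKO and Bach2 KO, with -2.0 ± 0.30 (SE, adjusted p = 0.000481) in Bach2 KO against WT and -1.21 ± 0.30 (SE, adjusted p = 0.0511) in DKO against Bach2 KO, which did not pass. Tpx2, which activates Aurora A on the spindle, was at -0.52, -0.67 and 0.09 in DKO, 0.10, 0.28 and 0.40 in Bach2 KO, 2.04, 2.11 and 2.57 in Bach1 KO and 1.89, 1.96 and 2.40 in WT. The lowest Bach2 KO array was just above the highest DKO array, and the differences from WT were -2.45 ± 0.28 (SE, adjusted p = 5.4e-05) in DKO and -1.82 ± 0.28 (SE, adjusted p = 0.000529) in Bach2 KO.

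Nek2, a kinase that separates centrosomes, was at -3.62, -4.56 and -6.18 in DKO, -0.78, -0.91 and -0.10 in Bach2 KO, -0.87, 0.60 and 0.08 in Bach1 KO and -0.02, 0.42 and -1.05 in WT. Bach2 KO overlapped WT and Bach1 KO, and DKO was far below all of them, with -4.57 ± 0.63 (SE, adjusted p = 0.000242) in DKO and -0.38 ± 0.63 (SE, adjusted p = 0.664) in Bach2 KO against WT. Plk1, the Polo kinase, was at -2.29, -1.91 and -1.99 in DKO, 1.85, 0.53 and 1.78 in Bach2 KO, 3.07, 3.08 and 2.70 in Bach1 KO and 2.30, 2.33 and 3.79 in WT. The DKO arrays were closely grouped below all others, Bach2 KO replicate 2 was the lowest of the others, and Plk1 differed by -4.87 ± 0.44 (SE, adjusted p = 8.1e-06) in DKO and -1.42 ± 0.44 (SE, adjusted p = 0.0258) in Bach2 KO against WT. The Bach2 KO call of Plk1 was lost without WT replicate 3 (-0.93, adjusted p = 0.0924) or Bach2 KO replicate 2 (-0.99, adjusted p = 0.0981). Aurkb, the kinase of the passenger complex, differed by -3.51 in DKO and -2.40 in Bach2 KO against WT, and was well above background on 1 DKO and 2 Bach2 KO arrays.

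Of 10 tested genes of the centromere, kinetochore and spindle checkpoint, 10 were lower in DKO than in WT and 8 in Bach2 KO, while Ndc80 and Mad2l1 did not pass in Bach2 KO. Cenpe, a motor that moves chromosomes to the spindle equator, was at -1.92, -2.18 and -2.28 in DKO, 0.91, 1.21 and 0.74 in Bach2 KO, 3.37, 3.28 and 2.88 in Bach1 KO and 2.86, 3.26 and 3.87 in WT. Its DKO and Bach2 KO ranges were narrow and separate, with -5.45 ± 0.29 (SE, adjusted p = 1.43e-07) in DKO and -2.37 ± 0.29 (SE, adjusted p = 0.000114) in Bach2 KO against WT. Spc25, a subunit of the NDC80 complex that binds microtubules at the kinetochore, was at 0.20 and 0.46 in DKO (the third DKO spot was an outlier and was dropped from the fit), 1.63, 1.87 and 1.68 in Bach2 KO, 3.64, 3.63 and 3.37 in Bach1 KO and 3.14, 3.55 and 4.05 in WT. It differed by -3.25 ± 0.29 (SE, adjusted p = 1.25e-05) in DKO and -1.86 ± 0.26 (SE, adjusted p = 0.000371) in Bach2 KO, with no overlap between DKO, Bach2 KO and the rest. Nuf2, which pairs with Ndc80 in that complex, was at -5.11, -4.50 and -3.98 in DKO, -1.64, -1.72 and -0.74 in Bach2 KO, 0.24, 0.69 and 0.12 in Bach1 KO and 0.11, 0.50 and -0.01 in WT. DKO arrays lay far below Bach2 KO arrays (-3.16 ± 0.38 (SE, adjusted p = 0.000969)), and Bach2 KO differed from WT by -1.57 ± 0.38 (SE, adjusted p = 0.00805).

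Sgol1 (shugoshin), which protects cohesion at centromeres, was at -2.62, -3.06 and -3.54 in DKO, -1.49, -1.06 and -1.66 in Bach2 KO, 1.35, 1.62 and -0.08 in Bach1 KO and 1.51, 1.08 and 2.36 in WT. Bach1 KO replicate 3 was lower than the other Bach1 KO arrays yet above every Bach2 KO array, and Bach2 KO differed from WT by -3.05 ± 0.48 (SE, adjusted p = 0.000622). Cenpa, the histone variant that marks centromeres, was at -0.82, -1.43 and -0.42 in DKO, -0.01, -0.11 and 0.36 in Bach2 KO, 1.53, 1.53 and 0.79 in Bach1 KO and 1.75, 1.31 and 1.64 in WT. The 3 lowest values belonged to DKO and the next 3 to Bach2 KO, with -2.46 ± 0.32 (SE, adjusted p = 0.000167) in DKO and -1.49 ± 0.32 (SE, adjusted p = 0.00465) in Bach2 KO against WT. Ndc80, the namesake of its complex, was at -4.84, -5.43 and -5.11 in DKO, -5.56, -5.13 and -3.42 in Bach2 KO, -2.97, -3.14 and -3.15 in Bach1 KO and -3.83, -3.77 and -3.15 in WT. Bach2 KO replicate 3 fell within the WT range, DKO and Bach2 KO overlapped, and the differences from WT were -1.55 ± 0.50 (SE, adjusted p = 0.0377) in DKO and -1.12 ± 0.50 (SE, adjusted p = 0.0968) in Bach2 KO. Without Bach2 KO replicate 3 the Bach2 KO difference was -1.76 (adjusted p = 0.00753), and the DKO call was lost when any of the WT or DKO arrays was left out (highest adjusted p = 0.117, without WT replicate 3). Mad2l1 (MAD2), the checkpoint protein that blocks Cdc20, was at 1.33, 1.51 and 1.22 in DKO, 2.65, 3.22 and 2.85 in Bach2 KO, 3.26, 3.29 and 3.34 in Bach1 KO and 3.38, 3.79 and 3.14 in WT. All DKO arrays were lower than any other, while Bach2 KO overlapped WT, with -2.08 ± 0.23 (SE, adjusted p = 4.48e-05) in DKO and -0.53 ± 0.23 (SE, adjusted p = 0.0942) in Bach2 KO.

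The checkpoint kinases Bub1 and Ttk and the checkpoint protein Bub1b were lower in both genotypes. Bub1 differed by -5.69 in DKO and -2.13 in Bach2 KO against WT, and its Bach2 KO call was lost without Bach2 KO replicate 1 (adjusted p = 0.0527) or 3 (adjusted p = 0.07). Bub1b differed by -2.83 in DKO and -1.63 in Bach2 KO. Ttk was well above background on 0 DKO arrays and 1 Bach2 KO array. It was at least 4.54-fold lower in DKO than in WT (adjusted p = 0.000426), and its Bach2 KO call (-2.26) was lost without Bach2 KO replicate 1 (-1.82, adjusted p = 0.0576). Cenpf, a kinetochore protein that was not tested, was at -7.63, -7.34 and -7.08 in DKO, -6.42, -6.05 and -5.54 in Bach2 KO, -2.63, -3.52 and -4.39 in Bach1 KO and -5.53, -4.22 and -2.66 in WT, and DKO was at least 2.68-fold lower than WT. Its DKO and Bach2 KO arrays were lowest, although WT replicate 1 lay beside Bach2 KO replicate 3.

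All 5 genes that act in anaphase or with the APC/C were lower in DKO than in WT, and 4 of them in Bach2 KO. Cdca3, an adaptor needed for entry into mitosis, was at -0.84, -1.68 and -0.68 in DKO, 0.51, 0.78 and 0.27 in Bach2 KO, 3.94, 3.36 and 3.64 in Bach1 KO and 3.93, 3.21 and 4.31 in WT. It had the smallest adjusted p of the 47 genes in Bach2 KO (-3.30 ± 0.35 (SE, adjusted p = 3.77e-05)), no Bach2 KO array came near a WT array, and DKO differed from WT by -4.88 ± 0.35 (SE, adjusted p = 1.21e-06). Cdc20, the activator that brings targets to the APC/C, was at 0.17, -0.55 and 0.36 in DKO, 2.32, 2.30 and 2.16 in Bach2 KO, 4.22, 3.94 and 3.87 in Bach1 KO and 3.99, 3.98 and 4.92 in WT. The Bach2 KO arrays were close to each other and lay between DKO and the rest, with -4.31 ± 0.31 (SE, adjusted p = 1.24e-06) in DKO and -2.04 ± 0.31 (SE, adjusted p = 0.000481) in Bach2 KO against WT. Ube2c, the ubiquitin-conjugating enzyme of the APC/C, was at -1.63, -1.49 and -2.36 in DKO, 1.03, 1.53 and 0.42 in Bach2 KO, 3.32, 3.80 and 2.65 in Bach1 KO and 2.51, 3.88 and 3.1 in WT. It differed by -4.99 ± 0.43 (SE, adjusted p = 6.13e-06) in DKO and -2.18 ± 0.43 (SE, adjusted p = 0.00289) in Bach2 KO, again with 3 separate ranges.

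Pttg1 (securin), which holds separase inactive until anaphase, was at 3.83, 3.85 and 3.73 in DKO, 3.76, 3.47 and 3.04 in Bach2 KO, 5.62, 4.97 and 5.44 in Bach1 KO and 5.29, 4.64 and 5.63 in WT. DKO and Bach2 KO overlapped below all other arrays, and the lowest array was Bach2 KO replicate 3. Pttg1 differed by -1.38 ± 0.29 (SE, adjusted p = 0.00394) in DKO and -1.76 ± 0.29 (SE, adjusted p = 0.000797) in Bach2 KO against WT, and by 0.38 ± 0.29 (SE, adjusted p = 0.484) in DKO against Bach2 KO. Espl1 (separase), which cuts cohesin at anaphase, was at -3.50, -4.65 and -6.03 in DKO, -3.22, -3.22 and -1.93 in Bach2 KO, -1.66, -0.99 and -1.51 in Bach1 KO and -1.38, -0.87 and -3.34 in WT. WT replicate 3 was the lowest WT array by far and overlapped Bach2 KO, and only the DKO difference passed (-2.86 ± 0.72 (SE, adjusted p = 0.0124), against -0.93 ± 0.72 (SE, adjusted p = 0.336) in Bach2 KO).

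All 8 genes for spindle motors and spindle proteins were lower in DKO than in WT, and 6 were lower in Bach2 KO, while Hmmr and Dlgap5 did not pass there. Kif4, a motor that condenses chromosomes and shapes the central spindle, was at -4.57, -4.01 and -4.62 in DKO, -2.42, -2.16 and -1.80 in Bach2 KO, -0.71, -0.19 and -0.71 in Bach1 KO and 0.29, 0.31 and 0.13 in WT. All 4 genotypes were separate, as for Cdk1, with -4.65 ± 0.31 (SE, adjusted p = 6.81e-07) in DKO and -2.37 ± 0.31 (SE, adjusted p = 0.000163) in Bach2 KO against WT and -0.78 (adjusted p = 0.792) in Bach1 KO. Nusap1, which bundles spindle microtubules, was at -3.65, -3.19 and -3.18 in DKO, -0.39, -0.18 and -0.54 in Bach2 KO, 2.32, 2.55 and 2.04 in Bach1 KO and 2.11, 2.72 and 1.51 in WT. The gap between DKO and Bach2 KO was wide, with -5.45 ± 0.32 (SE, adjusted p = 3.32e-07) in DKO and -2.48 ± 0.32 (SE, adjusted p = 0.000179) in Bach2 KO. Kif22, a motor that binds chromosome arms, was at -0.44, -0.79 and 0.19 in DKO, 0.04, -0.24 and -0.74 in Bach2 KO, 3.80, 3.03 and 3.21 in Bach1 KO and 3.51, 2.28 and 4.42 in WT. DKO and Bach2 KO overlapped and both were below every other array, with -3.75 ± 0.48 (SE, adjusted p = 0.000139) in DKO and -3.72 ± 0.48 (SE, adjusted p = 0.000171) in Bach2 KO, the largest Bach2 KO difference of the 47 genes.

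Kif11 (Eg5), the motor that pushes spindle poles apart, was at -4.66, -5.41 and -5.50 in DKO, -1.99, -2.08 and -1.62 in Bach2 KO, -0.01, -0.16 and -0.35 in Bach1 KO and -0.92, 0.10 and -0.20 in WT. DKO values were lowest and were well above background on 1 of 3 arrays, with -4.85 ± 0.36 (SE, adjusted p = 1.57e-06) in DKO and -1.56 ± 0.36 (SE, adjusted p = 0.00588) in Bach2 KO. Kif15, a motor that backs up Kif11, was at -6.47, -7.60 and -6.76 in DKO, -4.37, -4.40 and -3.24 in Bach2 KO, -1.16, -1.43 and -3.01 in Bach1 KO and -1.25, -1.59 and -1.93 in WT. No DKO array was well above background, so Kif15 was at least 15.7-fold lower in DKO than in WT (adjusted p = 1.85e-05) and differed by -2.41 ± 0.54 (SE, adjusted p = 0.00517) in Bach2 KO. Hmmr, a spindle assembly factor, was at -1.50, -1.03 and -2.47 in DKO, 0.31, 0.41 and 0.16 in Bach2 KO, 0.44, 1.02 and 0.88 in Bach1 KO and 0.65, 1.04 and 1.01 in WT. All Bach2 KO arrays were below all WT and Bach1 KO arrays, but by a step that did not pass (-0.60 ± 0.35 (SE, adjusted p = 0.202)), while DKO differed from WT by -2.56 ± 0.35 (SE, adjusted p = 0.000234).

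Dlgap5 (HURP), which stabilises microtubules near chromosomes, was at -3.72, -4.59 and -3.87 in DKO, -1.96, -2.33 and -0.65 in Bach2 KO, 0.25, -0.36 and -0.25 in Bach1 KO and -0.96, -0.21 and -1.18 in WT. Bach2 KO replicate 3 lay among the WT arrays and the other Bach2 KO arrays lay below them, and the differences from WT were -3.28 ± 0.46 (SE, adjusted p = 0.000279) in DKO and -0.86 ± 0.46 (SE, adjusted p = 0.166) in Bach2 KO. Without that replicate the Bach2 KO difference of Dlgap5 was -1.36 (adjusted p = 0.0367). Kif2c, a motor that takes microtubules apart, differed by -4.48 in DKO and -1.77 in Bach2 KO, and the Bach2 KO call (adjusted p = 0.0274) was lost without WT replicate 1 or 2 or any Bach2 KO replicate, with adjusted p between 0.0568 and 0.0765.

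All 6 genes of cytokinesis were lower in DKO and all 6 in Bach2 KO than in WT. Kif23, the motor of the centralspindlin complex, was at -2.69, -4.09 and -2.94 in DKO, -1.14, -0.94 and -1.17 in Bach2 KO, 2.47, 2.01 and 3.12 in Bach1 KO and 3.11, 1.95 and 2.70 in WT. Bach2 KO arrays spanned a narrow range between DKO and the rest, with -5.83 ± 0.43 (SE, adjusted p = 1.62e-06) in DKO and -3.67 ± 0.43 (SE, adjusted p = 8.34e-05) in Bach2 KO. Prc1, which crosslinks the central spindle, was at -1.68, -1.11 and -1.49 in DKO, 1.33, 1.38 and 0.76 in Bach2 KO, 3.80, 3.98 and 2.99 in Bach1 KO and 3.55, 4.15 and 4.51 in WT. DKO, Bach2 KO and the remaining arrays were separate, with -5.50 ± 0.34 (SE, adjusted p = 4.41e-07) in DKO and -2.91 ± 0.34 (SE, adjusted p = 8.26e-05) in Bach2 KO. Anln (anillin), a scaffold of the contractile ring, was at -1.88, -1.49 and -2.56 in DKO, 1.02, 1.85 and 0.43 in Bach2 KO, 3.30, 3.57 and 3.25 in Bach1 KO and 3.59, 4.59 and 3.12 in WT. It differed by -5.74 ± 0.44 (SE, adjusted p = 2.32e-06) in DKO and -2.66 ± 0.44 (SE, adjusted p = 0.000928) in Bach2 KO, also without overlap.

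Kif20a, a motor that carries the passenger complex to the midzone, was at -1.65, -1.78 and -1.16 in DKO, 1.12, 1.37 and 1.19 in Bach2 KO, 2.81, 2.92 and 2.03 in Bach1 KO and 2.54, 3.26 and 3.33 in WT. Bach2 KO arrays were tightly grouped below every Bach1 KO and WT array, with -4.57 ± 0.32 (SE, adjusted p = 9.61e-07) in DKO and -1.82 ± 0.32 (SE, adjusted p = 0.00124) in Bach2 KO. Racgap1, the partner of Kif23, differed by -3.16 in DKO and -2.25 in Bach2 KO. Ect2, the exchange factor that activates the contractile ring, differed by -3.1 in DKO and -1.11 in Bach2 KO. The Bach2 KO call of Ect2 was lost without Bach2 KO replicate 1 (-0.93, adjusted p = 0.0625) or 3 (-1.0, adjusted p = 0.0538).

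Both genes of chromosome structure, Top2a and Mki67, were lower in DKO and in Bach2 KO than in WT. Mki67, the proliferation antigen that coats mitotic chromosomes, was at 0.86, 0.26 and -0.05 in DKO, 2.51, 2.59 and 2.37 in Bach2 KO, 4.70, 4.38 and 4.76 in Bach1 KO and 4.60, 4.17 and 5.07 in WT. The steps were alike in size, with -2.14 ± 0.29 (SE, adjusted p = 0.00203) in DKO against Bach2 KO, and -2.12 ± 0.29 (SE, adjusted p = 0.000228) in Bach2 KO against WT. Top2a, the topoisomerase that disentangles sister chromosomes, was at -3.85, -4.86 and -4.43 in DKO, -2.22, -1.99 and -1.16 in Bach2 KO, -0.16, 0.31 and 0.00 in Bach1 KO and 0.06, 0.21 and -0.02 in WT. Its ranges for DKO, Bach2 KO and the rest were separate, with -4.46 ± 0.36 (SE, adjusted p = 3.33e-06) in DKO and -1.87 ± 0.36 (SE, adjusted p = 0.00235) in Bach2 KO.

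**Figure D2:**
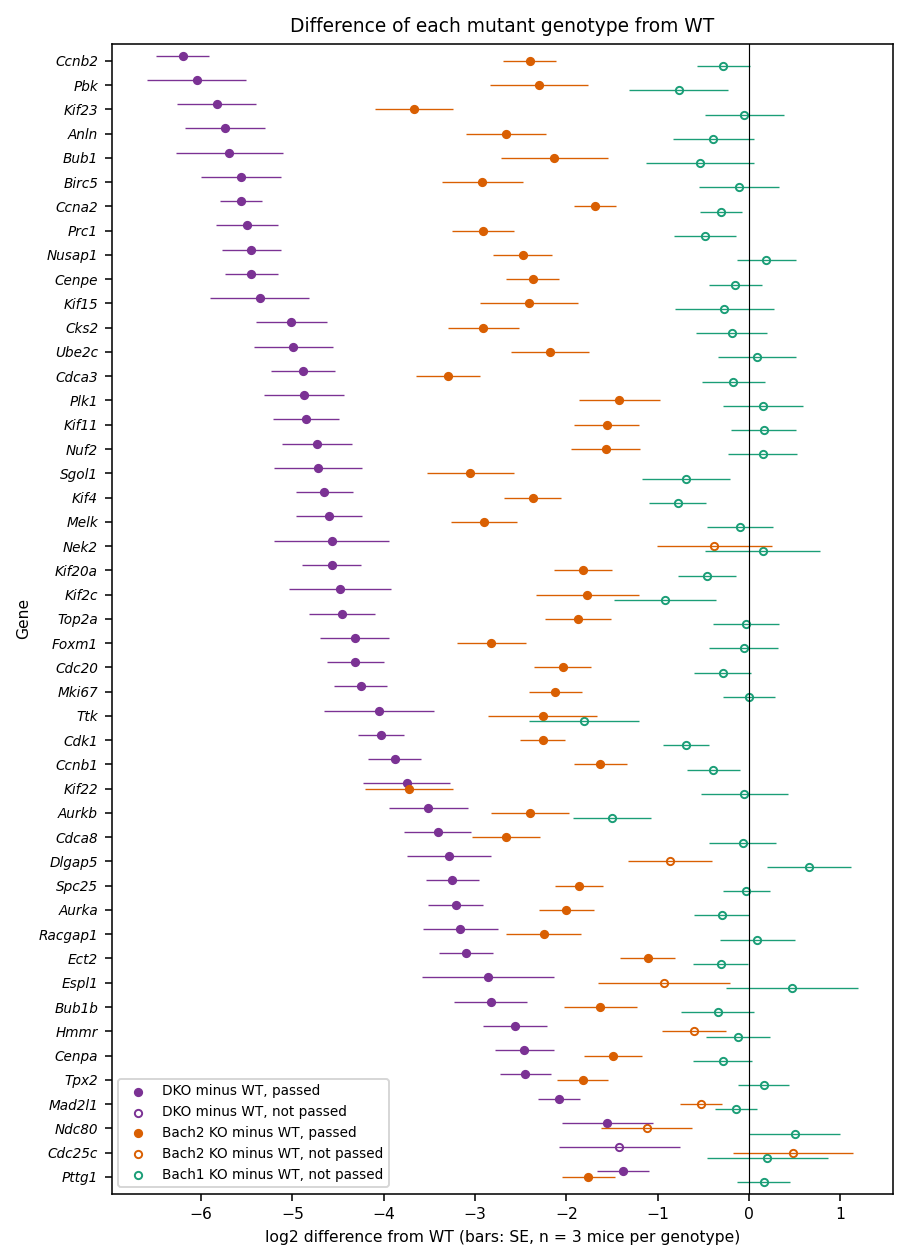
Points give the log2 difference of DKO, Bach2 KO and Bach1 KO from WT for the 47 tested genes, ordered by the DKO difference, with bars of 1 SE and filled points where the adjusted p was under 0.05. Fitted differences of Kif15, Ttk and Cdc25c in DKO stand in for levels not well above background, and DKO points run from -6.20 (Ccnb2) to -1.38 (Pttg1) while Bach1 KO points lie between -1.81 and 0.66.

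Loss of Bach1 on top of Bach2 was tested by setting DKO against Bach2 KO. Of the 47 genes, 32 were lower in DKO than in Bach2 KO, none was higher and 15 did not pass, where 2.12% of all genes were lower and 1.45% higher. At an unadjusted p under 0.05, 0 of the 47 were higher as well, where 2709 of all 23109 were higher. The median was -2.14, against 0.03 over all genes, and every DKO array was below every Bach2 KO array in 43 genes, where this held for 16.5% of all genes. The 4 with overlap were Cdc25c, Ndc80, Pttg1 and Kif22. The smallest adjusted p belonged to Ccna2 (-3.87 ± 0.23 (SE, adjusted p = 1.14e-05)), Ccnb2 (-3.79 ± 0.29 (SE, adjusted p = 4.49e-05)), Cenpe (-3.08 ± 0.29 (SE, adjusted p = 0.000187)), Kif11 (-3.29 ± 0.36 (SE, adjusted p = 0.000511)), Nusap1 (-2.96 ± 0.32 (SE, adjusted p = 0.000556)) and Kif20a (-2.76 ± 0.32 (SE, adjusted p = 0.000732)). These are 2 cyclins, 3 motors and a microtubule bundler. DKO against Bach1 KO gave 46 lower genes with a median of -4.04, where 15.3% of all genes were lower and 10.9% higher.

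The 2 steps sorted the genes into 4 groups. In 28 genes Bach2 KO was lower than WT and DKO lower again than Bach2 KO, which held for 0.913% of all genes. Of the 32 genes lower in DKO than in Bach2 KO, 22 kept this call under every alternative setting of the processing. Among the 28, it was lost under 8 settings for Kif2c, 7 each for Cdca3 and Spc25, 6 for Melk, 5 for Kif23, 4 for Cks2 and 3 for Kif15. In 12 genes only the Bach2 KO step passed: Aurka, Aurkb, Bub1b, Cdca8, Cenpa, Foxm1, Kif22, Pttg1, Racgap1, Sgol1, Tpx2 and Ttk. They include both Aurora kinases and the Aurora A activator Tpx2. In 10 of the 12 the DKO arrays still lay below all Bach2 KO arrays, the exceptions being Kif22 and Pttg1. In Dlgap5, Hmmr, Mad2l1 and Nek2 only the DKO step passed, with -2.42, -1.96, -1.55 and -4.19 for DKO against Bach2 KO. For Dlgap5 this was lost with the mean of its probes (-1.42, adjusted p = 0.0814) and without Bach2 KO replicate 3 (-1.92, adjusted p = 0.0532) or DKO replicate 2 (-2.16, adjusted p = 0.0574). For Mad2l1 it was lost with the mean of its probes (-1.43, adjusted p = 0.0737), and for Hmmr without Bach2 KO replicate 1 (-1.95, adjusted p = 0.0535). Cdc25c, Espl1 and Ndc80 passed in neither.

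Whether the Bach2 step differed with and without Bach1 was tested as an interaction, the DKO minus Bach1 KO difference less the Bach2 KO minus WT difference. It was negative and passed in 9 genes, was positive in none (0 at an unadjusted p under 0.05) and did not pass in 38, where 0.571% of all genes passed below and 0.104% above 0. The median was -1.91, against 0.09 over all genes. The 9 genes were Ccna2 (-3.56 ± 0.33 (SE, adjusted p = 0.00078)), Ccnb2 (-3.52 ± 0.41 (SE, adjusted p = 0.00266)), Cenpe (-2.93 ± 0.41 (SE, adjusted p = 0.00799)), Kif11 (-3.45 ± 0.50 (SE, adjusted p = 0.00983)), Nusap1 (-3.16 ± 0.46 (SE, adjusted p = 0.00983)), Nuf2 (-3.31 ± 0.54 (SE, adjusted p = 0.0184)), Plk1 (-3.60 ± 0.62 (SE, adjusted p = 0.0241)), Mki67 (-2.14 ± 0.41 (SE, adjusted p = 0.0381)) and Kif20a (-2.30 ± 0.45 (SE, adjusted p = 0.0442)). In Ccna2, for instance, loss of Bach2 changed the log2 level by -5.25 where Bach1 was also missing and by -1.69 where it was present. The interaction of Kif22 was 0.02 and that of Pttg1 0.22. Leaving out 1 array moved the count between 5 (without WT replicate 1) and 14 (without WT replicate 2). Slide and the presence of both deletions cannot be told apart here.

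**Figure D3:**
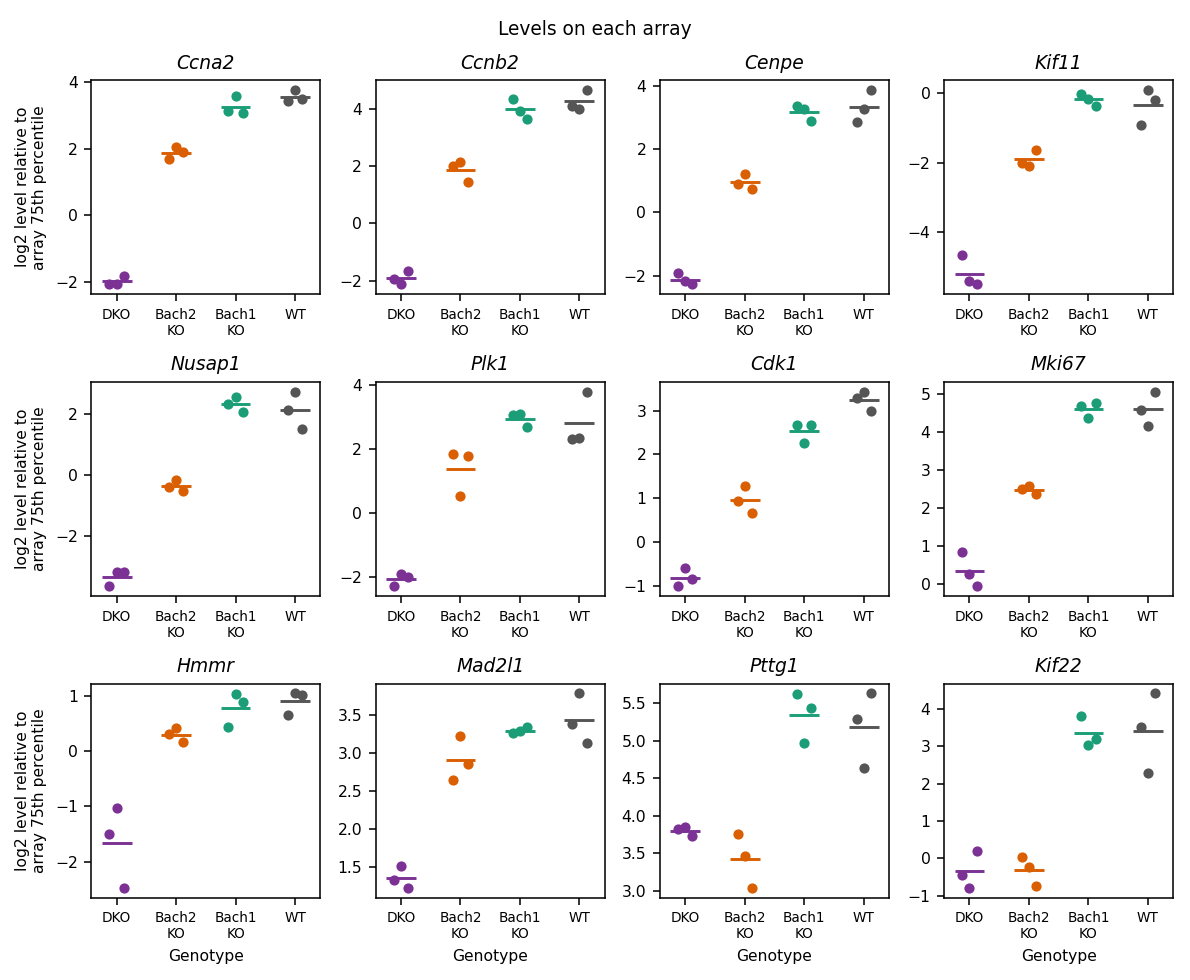
Dots give the log2 level on each of the 12 arrays relative to the array's 75th percentile, lines the mean of 3 mice, for 12 genes, with an axis of its own in each panel. Ccna2, Ccnb2, Cenpe, Kif11, Nusap1, Plk1, Cdk1 and Mki67 show 2 downward steps, Hmmr and Mad2l1 mainly the lower DKO level, and Pttg1 and Kif22 the same low range in DKO and Bach2 KO.

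Probes of the same gene did not always agree. Of the 48 genes, 34 had 1 probe and 14 had more. Single probes were judged here by a limma fit of all probes without the filter on dim probes. The bright probe of Mad2l1 gave -0.53 in Bach2 KO against WT and its other probes gave -0.83 and 0.42, none of which passed. A dimmer Pttg1 probe, well above background on all arrays, gave -0.19 in DKO and 0.05 in Bach2 KO, neither past the threshold, where the bright probe gave -1.38 in DKO and -1.76 in Bach2 KO. With the mean over probes the DKO difference of Pttg1 was -0.79 (adjusted p = 0.0571). The other Dlgap5 probe, nearly as bright and well above background on all arrays, gave -0.42 (adjusted p = 0.81) in DKO against Bach2 KO, where the bright probe gave -2.42. The 2 brighter Cdk1 probes gave -2.26 and -2.57 in Bach2 KO, and the dimmest, well above background on 0 DKO arrays, gave 0.40 (adjusted p = 0.916). Further probes of Birc5, Ube2c, Mki67 and Racgap1 passed in the same direction as the bright probe in both genotypes.

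The median SD of the mitotic genes between arrays was 0.44 in DKO, 0.36 in Bach2 KO, 0.30 in Bach1 KO and 0.50 in WT, against 0.32, 0.35, 0.40 and 0.47 over all genes in the same genotypes. By role, the median difference in DKO ran from -5.04 for cytokinesis to -3.51 for mitotic kinases, and in Bach2 KO from -2.46 for cytokinesis to -1.75 for the kinetochore group. The 48 genes lie on 17 chromosomes.

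Other cell cycle genes were counted in 9 lists, to be read against the 16.6% of all genes lower and 10.6% higher in DKO, and the 24.7% lower and 12.4% higher in Bach2 KO. Their levels are given as mean ± SD of 3 mice. Replication of DNA comes before G2. Of 30 licensing and S phase genes, 24 were lower in DKO and 25 in Bach2 KO than in WT and none was higher. In DKO against Bach2 KO 4 were lower, 1 was higher and 25 did not pass, where 2.12% of all genes were lower and 1.45% higher. The median of this list was -1.80, -1.90 and -1.61 on the DKO arrays and -1.43, -1.41 and -1.78 on the Bach2 KO arrays, so the 2 genotypes overlapped. Prim1, the primase subunit, was at 1.21 ± 0.20 in DKO, 0.86 ± 0.10 in Bach2 KO, 3.01 ± 0.10 in Bach1 KO and 3.04 ± 0.18 in WT, with -1.83 (adjusted p = 5.09e-05) in DKO and -2.19 (adjusted p = 1.77e-05) in Bach2 KO. Mcm6, of the replicative helicase, differed by -1.91 in DKO and -2.10 in Bach2 KO. Tk1, thymidine kinase, differed by -6.73 in DKO and -4.14 in Bach2 KO and was lower again in DKO than in Bach2 KO (-2.59, adjusted p = 0.00496). Whether the mitotic and the S phase lists differed in the DKO step was not tested.

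Of 27 tested kinetochore partners, 18 were lower and 1 higher in DKO, and 17 lower and 1 higher in Bach2 KO. In DKO against Bach2 KO 9 of them were lower and none was higher. The median of this list was -2.59, -2.47 and -2.17 on the DKO arrays and -1.48, -1.19 and -1.56 on the Bach2 KO arrays, without overlap. Cenpk and Cenpm, of the inner kinetochore, differed by -3.55 and -4.93 in DKO and by -2.34 and -2.73 in Bach2 KO, and Sgol2a, a shugoshin that was not well above background on any DKO array, by -2.44 in Bach2 KO. Of 21 regulators of G2 and mitotic entry, 16 were lower and 1 higher in DKO, and 13 lower and 2 higher in Bach2 KO. In DKO against Bach2 KO 6 of them were lower and none was higher. The list median was -2.39, -2.72 and -2.85 on the DKO arrays and -1.64, -1.35 and -1.96 on the Bach2 KO arrays, again without overlap. Ccnf, Cdc25b and Shcbp1 led this list by adjusted p. Cdc25b, which activates Cdk1, was at -0.36 ± 0.25 in DKO, 0.98 ± 0.32 in Bach2 KO and 3.59 ± 0.36 in WT. Shcbp1, a cytokinesis factor, was at -2.38 ± 0.28 in DKO, 0.72 ± 0.15 in Bach2 KO and 2.76 ± 0.22 in WT, and DKO differed from Bach2 KO by -3.09 (adjusted p = 4.49e-05). Ccnf, a substrate receptor of an SCF ubiquitin ligase, was at -1.53 ± 0.39 in DKO, -1.56 ± 0.24 in Bach2 KO and 1.27 ± 0.08 in WT, and did not pass in DKO against Bach2 KO (0.03, adjusted p = 0.968).

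Condensin and cohesin gave 10 lower of 15 genes in DKO and 7 in Bach2 KO, with none higher. The condensin subunits Ncaph and Ncapd2 differed by -4.10 and -4.40 in DKO and by -2.83 and -3.01 in Bach2 KO, and Smc4 by -1.81 in DKO and -1.84 in Bach2 KO. Of 15 APC/C genes, 1 was lower and 3 higher in DKO, and 6 were lower and 3 higher in Bach2 KO. Fbxo5 (EMI1), the inhibitor of the APC/C, was lower in both (-2.57 in DKO and -2.35 in Bach2 KO), Ube2s was at 3.70 ± 0.02 in DKO, 2.01 ± 0.31 in Bach2 KO and 3.91 ± 0.57 in WT, and the subunit Anapc16 was higher by 1.08 in DKO and 1.61 in Bach2 KO.

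Among 21 genes of the DREAM, E2F and RB families, which switch cell cycle promoters on and off, 7 were lower in DKO and none higher, and 7 were lower and 2 higher in Bach2 KO. E2f7, an atypical repressor E2F, was at -3.83 ± 0.42 in DKO, -0.13 ± 0.09 in Bach2 KO and 2.49 ± 0.34 in WT. Lin37, a MuvB subunit, and E2f2, an activator, differed by -1.30 and -2.03 in DKO and by -2.12 and -1.85 in Bach2 KO. Of 9 G1 cyclins and kinases, 4 were lower and none higher in DKO, and 4 lower and 2 higher in Bach2 KO. The D cyclins Ccnd3 and Ccnd2 differed by -2.64 and -3.78 in DKO and by -3.44 and -2.04 in Bach2 KO, and cyclin E1 (Ccne1) by -2.41 in DKO and -1.53 in Bach2 KO.

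Among CDK inhibitors, which brake the cycle, 1 of 7 was lower and 2 were higher in DKO, and 1 was lower and 2 were higher in Bach2 KO. Cdkn1c (p57) was at -1.09 ± 0.34 in DKO, -1.54 ± 0.32 in Bach2 KO, -3.47 ± 1.18 in Bach1 KO and -5.44 ± 1.29 in WT, and was well above background on 2 of 3 Bach1 KO arrays and 2 of 3 WT arrays. Cdkn1a (p21) was higher by 1.01 (adjusted p = 0.00309) in DKO and 1.13 (adjusted p = 0.00139) in Bach2 KO, and Cdkn1b (p27) differed by -1.62 in Bach2 KO (adjusted p = 0.035) and did not pass in DKO. Of 10 growth factor receptors and self-renewal factors, 1 was lower and 3 higher in DKO, and 2 lower and 3 higher in Bach2 KO. Csf1, the ligand of the macrophage colony-stimulating factor receptor, was at 4.75 ± 0.08 in DKO, 4.04 ± 0.30 in Bach2 KO, -3.47 ± 0.46 in Bach1 KO and -5.63 ± 2.10 in WT, with 2 of 3 WT arrays well above background. Csf2rb, a receptor chain for GM-CSF, differed by -0.74 in DKO and -0.97 in Bach2 KO. No gene of the 9 lists passed in Bach1 KO against WT.

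**Figure D4:**
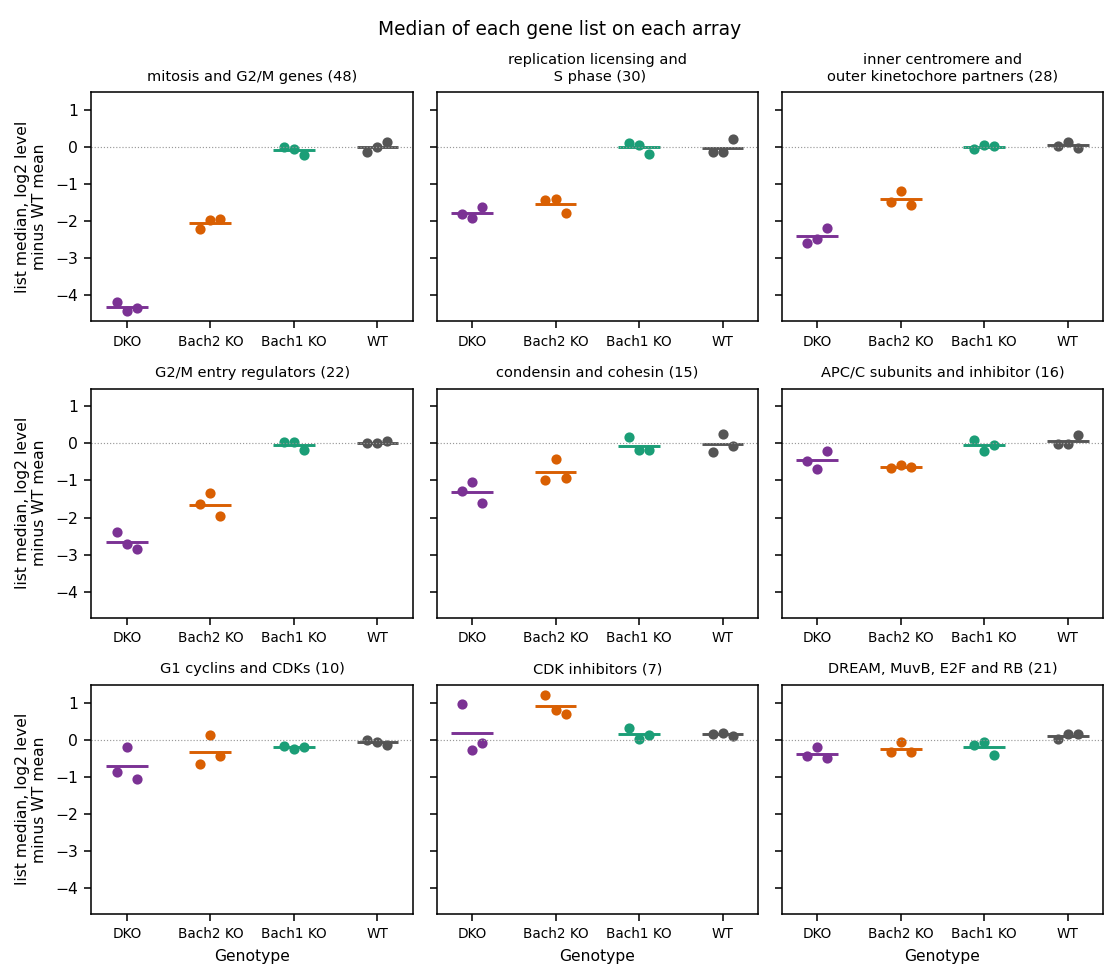
Each dot is the median of a gene list on 1 array, as log2 level minus the WT mean of each gene, with the mean of 3 arrays as a line and the number of genes on the array in brackets. The mitosis and G2/M genes show 2 separate steps to -4.18 or lower in DKO, whereas the S phase list has DKO and Bach2 KO medians in the same range. The kinetochore partners, the G2/M entry regulators and the condensin and cohesin list also have all DKO medians below all Bach2 KO medians.

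**Figure D5:**
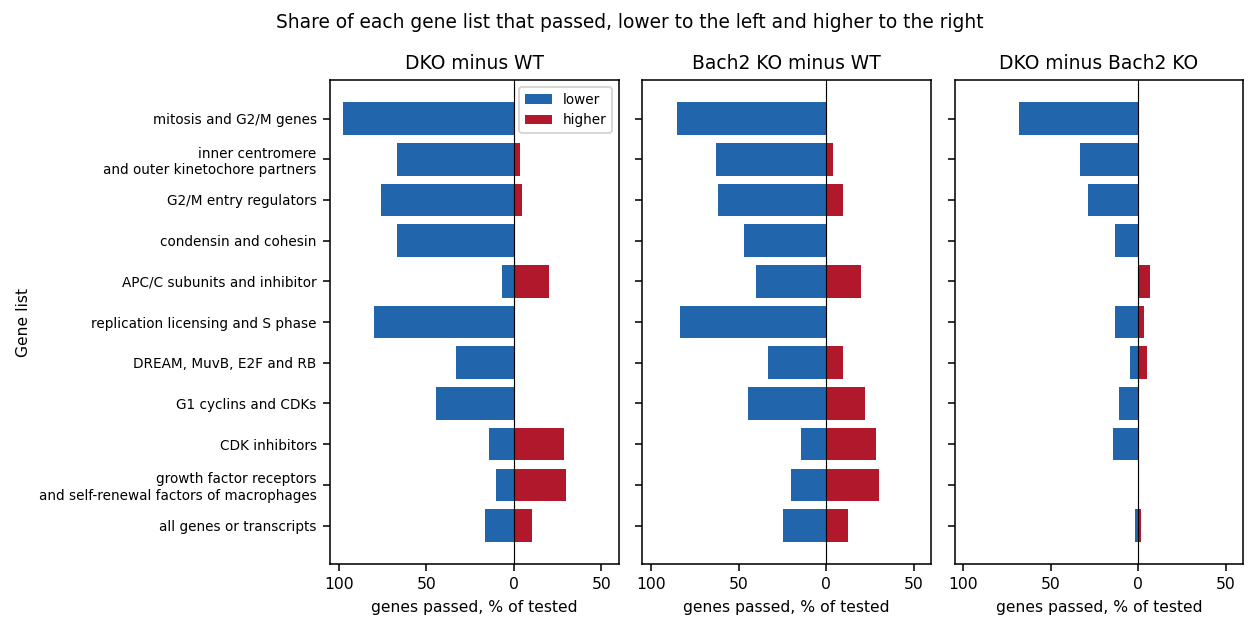
Bars give the percentage of the tested genes of each list that passed at an adjusted p under 0.05, lower to the left and higher to the right, in 3 comparisons. Mitosis and G2/M genes are almost all lower in DKO against WT (46 of 47), and 32 of 47 are lower in DKO against Bach2 KO. In that last comparison 9 of 27 kinetochore partners, 6 of 21 G2/M entry regulators, 4 of 30 S phase genes and 2.12% of all genes are lower.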

How the data were processed

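RNA of 12 mice was amplified, labelled with Cy3 and hybridised to 1-colour Agilent arrays, per the labels' protocols. Agilent Feature Extraction 10.7.3.1 made the deposited intensity values, per the file headers, where the submitters' processing notes name version 9.1; these intensities are background-subtracted and not normalized between arrays. The authors' deposited log2 values, centred on each probe's median, correlated with the scanner values at 0.99918 or more and were an alternative; the direction and scale were read from that match. Levels here are log2 processed signal minus each array's 75th percentile. Control and outlier spots were left out, 30854 of 55681 probes passed the filter, and the brightest probe stood for a gene. Accessions named 26413 probes through RefSeq (GRCm38.p6), leaving 29268 under their accessions. Differences were fitted with limma 3.58.1 (R 4.3.3) on 4 group means with 8 residual degrees of freedom, and p-values were Benjamini-Hochberg adjusted over 23109 genes or transcripts. The number of arrays limits the precision, and the labels do not say more of the replicates than that each is 1 mouse sample.

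Per-array values are given for up to 4 genes of each role with the smallest adjusted p in Bach2 KO against WT, for those that did not pass there, and for up to 6 each in the other comparisons; of each pathway list, up to 3 genes are named, and 1 that the rule picks is not reported here. Plk1 and the other genes singled out beyond this were chosen after their values were seen. The 48 genes, the lists and the tests were chosen with earlier results of these data known. The code was tested on simulated data. In a check for pairing, which is another measure than the correlation of levels within a genotype given above, replicates of different genotypes were compared. Same-numbered replicates correlated at -0.143 to 0.385, over 0.1 in 6 of 18 pairs. Differently numbered ones correlated at -0.267 to 0.2, over 0.1 in 5 of 36 pairs. These overlapping ranges do not settle whether the numbers pair the samples, and the main fit left them unpaired. Alternatives covered scaling, background correction, filters, probes, slide, spread, threshold and left-out arrays.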

Additional observations from a re-analysis of the deposited data

Results flagged for a closer look

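The difference made by loss of Bach2 was larger where Bach1 was also missing in 9 genes, by the interaction test in limma over 23109 genes or transcripts. The interaction was -3.56 in Ccna2, -3.52 in Ccnb2, -2.93 in Cenpe, -3.45 in Kif11 and -3.16 in Nusap1, which passed under each alternative that tested them, 26 for Kif11 and 27 for the others. It was -3.31 in Nuf2, which did not pass with the series matrix values, at an adjusted p under 0.01 or without WT replicate 1. It was -3.60 in Plk1, which did not pass under 10 of 27 alternatives. It was -2.14 in Mki67 and -2.30 in Kif20a, which did not pass under 15 and 16 of 27, among them scaling to array medians, the series matrix values, no filter on dim probes and a fit without a trend. All DKO arrays lay on 1 slide, so slide and genotype cannot be told apart.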

How the results depend on the processing

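None of these genes passed as higher in a knockout under any alternative run. Leaving out 1 array gave 36 to 41 lower genes in Bach2 KO against WT (median -2.16 to -1.91), 0 to 0 in Bach1 KO (-0.24 to -0.09), 44 to 47 in DKO against WT (-4.51 to -4.27), 44 to 47 in DKO against Bach1 KO (-4.23 to -3.95), 25 to 34 in DKO against Bach2 KO (-2.31 to -2.09) and 5 to 14 in the interaction (-2.04 to -1.82). Without scaling, Bach2 KO against WT gave 26 lower genes, and the medians were -1.43 in Bach2 KO, 0.01 in Bach1 KO, -4.03 in DKO against WT, -3.75 against Bach1 KO, -2.39 against Bach2 KO and -2.32 in the interaction. The median of all genes in Bach2 KO against WT was then 0.39, against -0.30 with the 75th percentile, -0.15 with quantile normalization and -0.53 with array medians. Higher genes were 68.8% of all calls there without scaling, 44.7% with quantile normalization and 33.5% with the 75th percentile, and in DKO against WT 63% and 38.9%, against Bach1 KO 57.6% and 41.6%, against Bach2 KO 20.3% and 40.7%, and in the interaction 3.11% and 15.4%, without scaling and with the 75th percentile. Quantile normalization gave -1.93 in Bach2 KO and 14 interaction genes with a median of -2.04, and array medians gave -2.35, -4.61 in DKO against WT and -1.76 in the interaction. Normexp on median signals, chosen after seeing the data because the files used hold no mean signal (that setting was not run), gave -2.0 in Bach2 KO, -3.64 in DKO against WT, -3.49 against Bach1 KO, -1.70 against Bach2 KO and -1.61 in the interaction. The mean of probes gave -2.0 in Bach2 KO, and array weights gave -1.89 in Bach2 KO, -4.33 in DKO against WT, -4.15 against Bach1 KO and 29 interaction genes. The interaction count was 5 with the series matrix values and 5 at an adjusted p under 0.01. With WT replicate 3 and Bach1 KO replicate 3 both left out, also chosen after seeing the data, medians were -1.90 in Bach2 KO, 0.06 in Bach1 KO, -4.26 in DKO against WT and -4.23 against Bach1 KO. In Bach2 KO against WT, Nek2 was 0.31, Mad2l1 0.16 and Hmmr 0.09 without scaling, and Cdc25c was -0.09 with normexp. The replicate block gave 40, 0, 46, 46, 32 and 9 lower genes in the 6 comparisons in the order above, with unchanged medians (-2.12 in Bach2 KO), but Kif20a (adjusted p = 0.0761) and Mki67 (adjusted p = 0.0595) did not pass in the interaction under it. The causes were not tested. Signal near background limits the DKO levels of the genes that were not well above background on all DKO arrays, apart from Spc25, where an outlier spot was left out.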
